A study of Mus musculus with 8 samples.

Results

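A divergent promoter lies between the starts of a pair of genes that are transcribed away from each other on opposite strands. Lost regions at divergent coding promoters were open regions listed for control liver only, within 200 bp of a transcript start of a protein-coding gene and within 1000 bp of the start of a different gene, of any type, on the other strand and pointing away. The rule gave 143 of the 8031 control-only regions, which is 1.78% of them (95% interval 1.51 to 2.09). The 143 regions made up 10.7% (9.14 to 12.5) of the 1338 lost regions at coding promoters. They fell on 140 distinct gene pairs with 167 coding genes. The count depends on the starts used, since with only the outermost start of each gene it was 61.

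Open chromatin was measured by ATAC-seq, in which a transposase inserts sequencing adapters into accessible DNA, in nuclei from frozen livers of adult C57BL/6 mice (C57BL/6J in the methods). Control mice (4 libraries) expressed Cre, and Alb-D2KO mice (4 libraries) lacked the type 2 deiodinase gene Dio2, which codes for an enzyme that activates thyroid hormone. Dio2 was floxed and removed by Cre under the albumin promoter, so the deletion was directed to hepatocytes, while the nuclei came from whole liver with its other cell types. An age beyond adult is not given in the sources used here. The libraries of each genotype were called together, and a region that overlapped a region of the other genotype was removed from both lists, which left 8031 control-only and 250 Alb-D2KO-only regions. "Lost" below means only that a region was in the control list and not in the Alb-D2KO list. No region has a value per mouse, so no spread between replicates and no test between genotypes could be given, and the sequencing depth is unknown. Intervals are 95% Wilson intervals for shares and order-statistic intervals for medians, and they cover counting error only.

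At a divergent promoter, RNA polymerase is loaded in both directions from a shared accessible stretch that is often rich in CpG. Pairs of coding genes arranged in this way are frequent among housekeeping genes, such as those for DNA repair and for mitochondrial proteins, and many other coding genes share their promoter with a long noncoding RNA (lncRNA). ATAC-seq has no strand, so an open region between a pair of starts cannot be assigned to either gene.

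The sequences between the starts are shown for members named below for their signal or their type of partner, where the span between the starts lies outside every annotated exon, because this is the stretch that both genes share. Of the 14 such members, 6 had such a span of 20 to 300 bp. Each is from the mm10 build and is printed 5′ to 3′ on the strand of the coding gene named first. Capitals mark matches to CACGTG (E-box), CCGGAAG (ETS) or GGGGCGGGG (SP1) on either strand, so CTTCCGG and CCCCGCCCC are the same motifs read on the other strand. The first lies between Socs2 and the lncRNA 5730420D15Rik at chr10:95417181-95417374 (minus strand, 194 bp).
Socs2: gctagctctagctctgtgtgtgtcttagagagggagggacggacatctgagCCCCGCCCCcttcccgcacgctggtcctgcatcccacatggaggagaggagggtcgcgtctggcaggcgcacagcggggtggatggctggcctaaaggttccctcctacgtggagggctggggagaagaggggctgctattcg
The next lies between Trim11 and the noncoding transcript 2310058D17Rik at chr11:58978051-58978092 (plus strand, 42 bp).
Trim11: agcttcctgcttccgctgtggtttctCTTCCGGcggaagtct
The pair Zfp943 and Zfp942 is separated by chr17:21962465-21962551 (plus strand, 87 bp), and Zfp758 and Zfp944 by chr17:22361401-22361452 (plus strand, 52 bp).
Zfp943: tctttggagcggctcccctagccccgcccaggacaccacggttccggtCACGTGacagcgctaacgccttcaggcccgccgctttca
Zfp758: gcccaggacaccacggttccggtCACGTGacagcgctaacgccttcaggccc
Anapc11 and Alyref enclose chr11:120598366-120598420 (plus strand, 55 bp), and Sar1b and Sec24a enclose chr11:51763635-51763686 (plus strand, 52 bp), which held none of the motifs searched.
Anapc11: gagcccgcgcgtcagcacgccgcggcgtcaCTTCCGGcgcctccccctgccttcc
Sar1b: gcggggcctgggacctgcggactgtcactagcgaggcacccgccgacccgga

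The whole Zfp758 span of 52 bases occurs within the 87 bases of the Zfp943 span, E-box included, which was noticed after the sequences were read. Reads of low mapping quality had been removed before the regions were called, and the part of sequence shared by copies of these genes in their values was not tested. The G and C content of the 6 spans ran from 57.1% at Trim11 to 78.2% at Anapc11. CpG dinucleotides numbered 10 in the Socs2 span, 9 in the Zfp943 span and 9 in the Anapc11 span.

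Signal was read as the AUC, the area under the curve of -log10 p over a region, which grows with both height and width. The 143 regions had a median AUC of 304 (280.7 to 332), with quartiles of 251 and 408 and a range from 202 to 1024. An AUC under 250 was found for 35 of them and one over 500 for 14. Their median width was 421 bp (382 to 472), and the narrowest and widest covered 178 and 1489 bp.

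The highest signal was at Socs2, the suppressor of cytokine signalling that restrains the growth hormone receptor. Its region covered chr10:95416528-95417606 (1079 bp) with an AUC of 1024, spanned the starts of Socs2 and of its annotated bidirectional promoter lncRNA 195 bp away, and had its summit in an exon 330 bp inside Socs2. Rere, which codes for a transcriptional corepressor of the atrophin family, followed with an AUC of 775 at chr4:150569033-150570521. That region was the widest of the members and covered the Rere start but not that of the antisense Gm13091, which lies 1044 bp away. Its summit was at -323 bp, where negative positions lie upstream of the coding start and therefore towards the partner.

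Trim11, a ubiquitin ligase gene, had an AUC of 743 at chr11:58977757-58979003, with both starts covered and the summit in an exon at 23 bp. Mgll, which codes for the lipase that splits monoglycerides, had an AUC of 682 at chr6:88724304-88725289, where the antisense Gm26588 starts 95 bp away. The organic anion transporter gene Slco2b1 had an AUC of 609.5 at chr7:99664565-99665071, with the antisense Gm15635 only 12 bp away and the summit in an intron at 216 bp. With Socs2 and Rere, these were the 5 strongest members with an annotated lncRNA partner, and in 4 of the 5 the region covered both starts. Zeb1, a zinc finger repressor gene on chromosome 18, had an AUC of 622, and its region covered only the start of Gm2238, a transcript still to be experimentally tested.

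Among pairs of coding genes, the strongest region lay at Tkfc and Ddb1, with an AUC of 658 at chr19:10603454-10604731. Tkfc codes for triokinase, which acts in fructose breakdown, and Ddb1 for the adaptor of cullin 4 ubiquitin ligases. The starts are 1069 bp apart, and the region covered that of Tkfc only, with its summit in an intron at -189 bp. Zfp943 and Zfp942 code for zinc finger proteins and shared a region with an AUC of 591 at chr17:21962203-21962857. Another zinc finger pair, Zfp758 and Zfp944, had an AUC of 484 at chr17:22361122-22361761. Both regions covered both starts and had the summit in an exon, at 208 bp from Zfp943 and at 249 bp from Zfp758.

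Anapc11, a catalytic subunit of the anaphase-promoting complex, and Alyref, an mRNA export factor, shared a region with an AUC of 591 at chr11:120598338-120598732. Klhdc8b and Ccdc71 had an AUC of 587 at chr9:108460272-108461113, where the summit was in an exon 517 bp inside Klhdc8b. Map3k12, a kinase upstream of JNK, and Tarbp2, the partner of Dicer, are 1128 bp apart, and the region at chr15:102516793-102517441 had an AUC of 579. It covered the Map3k12 start only, and its summit was intergenic at -278 bp. Sar1b and Sec24a both code for parts of the COPII coat that carries cargo from the endoplasmic reticulum. Their region at chr11:51763550-51763902 had an AUC of 472 and its summit in an exon at 16 bp from Sar1b.

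Rrnad1 and Isg20l2 had a region with an AUC of 514 at chr3:87929877-87930352, with the summit at 9 bp. This pair also held another member at chr3:87930473-87930817, inside Isg20l2, with an AUC of 306. In all, 3 pairs held 2 members each, and they are named here because their values were seen. The others were the kinase gene Pim1 with the antisense Gm26885, with AUCs of 443 and 293, and Fermt2 with 4930527F14Rik, with AUCs of 332 and 212.

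**Figure D1:**
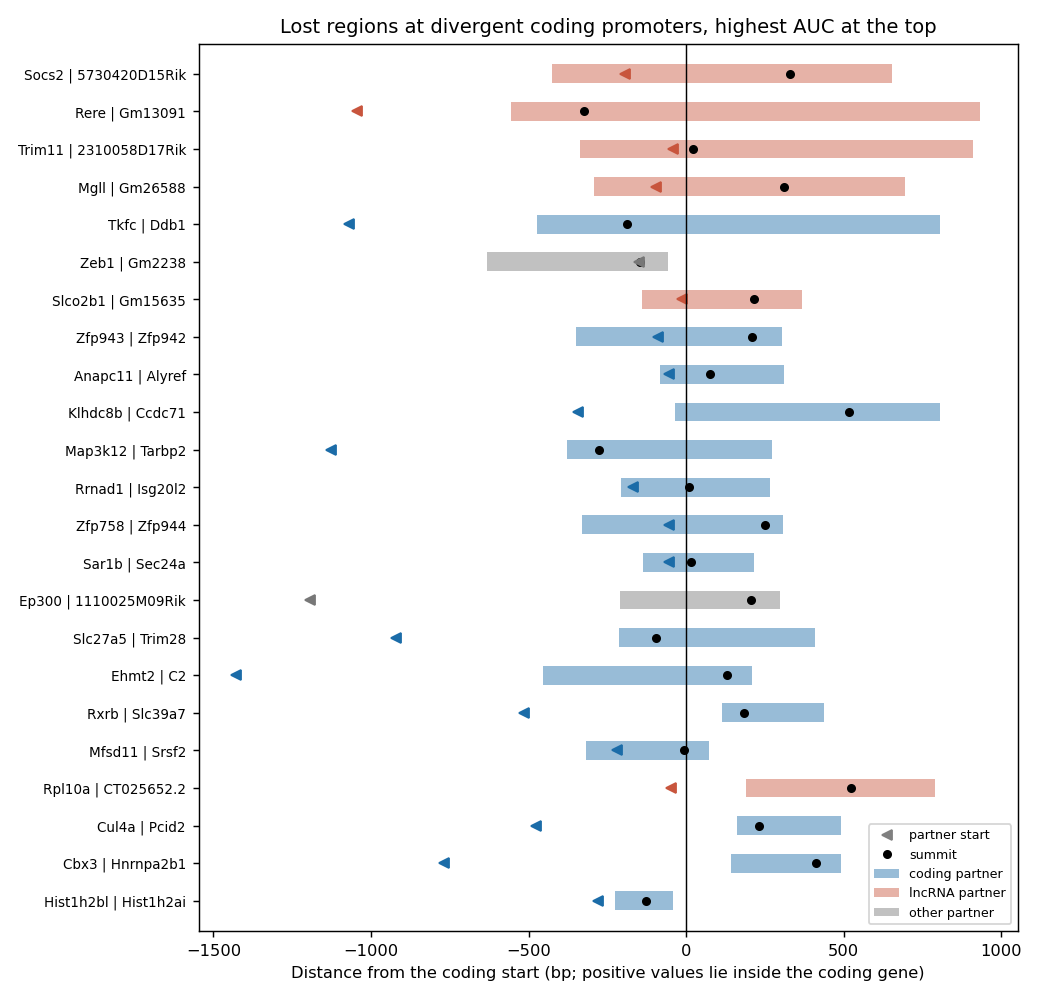
Position of the strongest and listed members relative to the coding start, in bp, with the region as a bar coloured by the type of partner, the summit as a dot and the partner start as a triangle. Regions from Socs2 (AUC 1024) at the top to Hist1h2bl (AUC 204) at the bottom differ in whether they reach the partner start.

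Partners were divided nearly evenly between coding genes and noncoding RNAs. The 2994 annotated divergent pairs comprised 1233 pairs of coding genes and 1368 of a coding gene with an lncRNA. Where a member had several pairs, a coding partner was shown first, which favours coding partners by construction. Annotated pairs were counted without this preference, so their counts and those of the members are not on the same basis. A coding partner was found for 63 members (44.1%, 36.2 to 52.2) and an lncRNA partner for 69 (48.3%, 40.2 to 56.4). The lncRNAs comprised 23 antisense transcripts, 17 lincRNAs, 17 annotated bidirectional promoter lncRNAs and 12 processed transcripts. The remaining 11 had a transcript still to be experimentally tested (5: Zeb1, Arhgdia, Ep300, Lsm14a and Dennd1b), a pseudogene (4: Gltpd2, Mia2, Slc37a1 and Pvr) or a microRNA (2: Cyp2d10 and Bcl7c). The median AUC was 296 with a coding partner and 310.4 with an lncRNA partner, and the median widths were 390 and 430 bp. These small differences in medians have no replicate error to be set against.

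The distance between the starts had a median of 226 bp (148 to 289), with quartiles of 75.5 and 655 bp. Starts were at most 100 bp apart in 44 members, 100 to 300 bp apart in 42, 300 to 1000 bp apart in 38 and further apart in 19. The last group exists because the rule measured 1000 bp from the region, not from the coding start. Across the 2994 annotated pairs with starts within 1000 bp of each other, the median distance at their closest starts was 132 bp (126 to 137). The rule admits wider pairs and any start of a gene, so the larger value of the members is partly set by how they were chosen.

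Only part of the members spanned the whole divergent unit. Both starts were covered by 54 regions (37.8%, 30.2 to 45.9), the coding start alone by 48, the partner start alone by 6 and neither by 35. Those that covered both starts had a median AUC of 342 and starts a median of 85 bp apart, against 272 and 275 bp for those that covered neither. With an lncRNA partner, 36 of 69 regions covered both starts (52.2%, 40.6 to 63.5), and with a coding partner 18 of 63 did (28.6%, 18.9 to 40.7). The latter pairs had starts further apart, with medians of 279 bp for coding and 148 bp for lncRNA partners, and the part of this distance in the difference was not tested. Annotated pairs at their closest starts run the other way, with 106 bp (99 to 114) for pairs of coding genes and 136 bp (129 to 145) for a coding gene with an lncRNA. For the members a coding partner was shown first even when a noncoding start was nearer. The 6 regions on the partner start alone were at Zeb1, Arhgdia, Grtp1, N4bp2, Srgap3 and Slc37a1.

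Over all members, the summit lay past the coding start, inside the coding gene, in 70 (49.0%, 40.9 to 57.1), between the starts in 58 and past the partner start in 15. These places refer to the starts shown, because genes have several starts and the annotated bodies of the paired genes overlap in 65 of 143 members (45.5%, 37.5 to 53.6). The median position was -4 bp from the coding start (-30 to 18), with quartiles of -81.5 and 207 bp. No direction can be read from the 63 members with a coding partner, because the gene named first was chosen by closeness to the region or summit. In 27 of them both genes had a start within the 200 bp limit, and ties were settled by closeness to the summit. In the others only the gene named first had a start within that limit. With an lncRNA partner, the summit was between the starts in 31 of 69 members (44.9%, 33.8 to 56.6), inside the coding gene in 24 (34.8%, 24.6 to 46.6) and inside the lncRNA gene in 14 (20.3%, 12.5 to 31.2). The median position of these 69 was -32 bp (-64 to -4), and 46 of the summits were nearer the coding start than the lncRNA start. That nearness is partly built in, because the rule asked for 200 bp from the coding start and 1000 bp from the partner. By annotation, 74 summits were in an exon of any gene (51.7%), 39 in an intron (27.3%) and 30 between genes (21%).

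**Figure D2:**
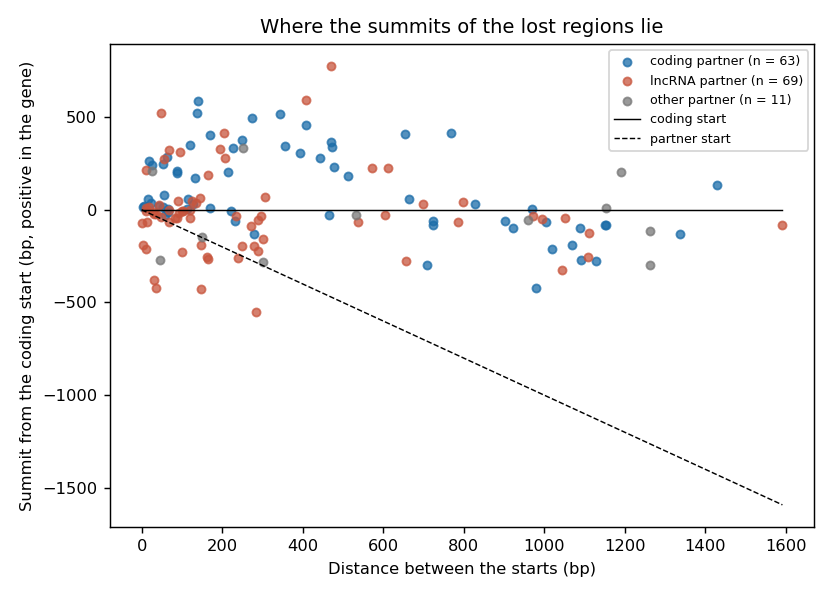
Summit position from the coding start, in bp, against the distance between the starts for the 143 members, coloured by partner. Points above the solid line (70 members) lie inside the coding gene, points below the dashed line (15) lie inside the partner gene, and points between the lines (58) lie between the starts.

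Compared with the 1195 lost regions at one-directional coding promoters, which have no opposite start pointing away within the same distance, the members had nearly the same AUC. The medians were 304 (280.7 to 332) and 305 (297 to 314), and the 222 lost regions at noncoding and pseudogene promoters had 297 (285 to 314). The 6471 regions away from promoters were lower in AUC, at 272 (269.7 to 275). The members' median width of 421 bp stood beside 392 bp (383 to 402) at one-directional and 370 bp (344 to 395) at noncoding promoters, and wider regions reach an opposite start more easily under the rule. Signal per bp was 0.756 (0.701 to 0.844) for the members, 0.807 (0.788 to 0.827) for one-directional and 0.859 (0.808 to 0.915) for noncoding promoters, and it was highest away from promoters, at 0.934 (0.926 to 0.944).

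The deposited score, which is AUC per bp times 1000 with a ceiling of 1000, was at that ceiling in 30 of the members (21%, 15.1 to 28.4). At one-directional promoters 325 of 1195 were (27.2%, 24.7 to 29.8), at noncoding promoters 82 of 222 (36.9%, 30.9 to 43.5), and away from promoters 2745 of 6471 (42.4%, 41.2 to 43.6), the highest of the 4 classes. The summit -log10 q had a median of 3.15 in the members and 3.17 at one-directional promoters. The members' intervals overlapped those of one-directional promoters for AUC, width, signal per bp, score and q.

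**Figure D3:**
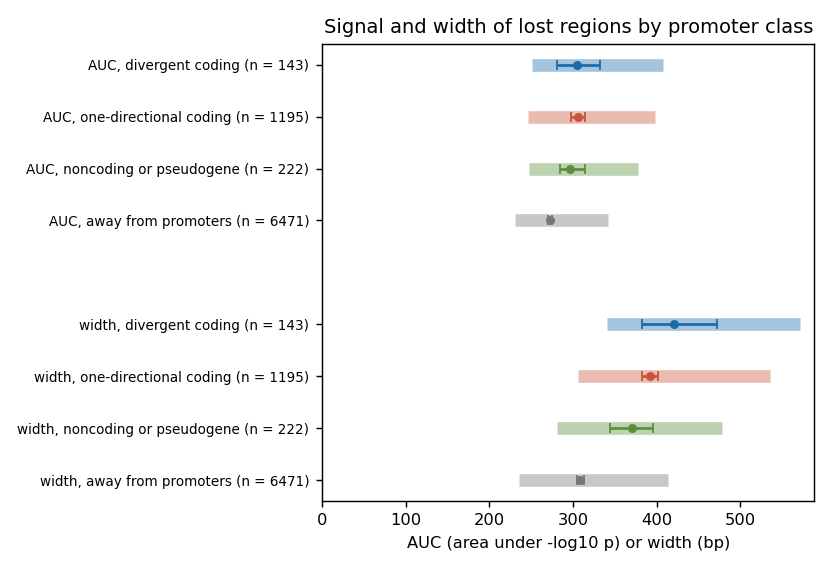
Median AUC and median width (dots, with 95% order-statistic intervals as thin bars) and quartiles (thick bars) of lost regions by promoter class. Divergent coding promoters (n = 143) match one-directional ones (n = 1195) in AUC, at 304 and 305, and have a median width of 421 against 392 bp.

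Over the regions themselves, the members had the highest median G and C content of the 4 classes, 64.0% (62.6 to 65.7), against 61.2% (60.4 to 61.9) at one-directional promoters, 53.4% at noncoding promoters and 50.9% elsewhere. In windows of 301 bp, centred between the starts for pairs and on the start for one-directional promoters, the G and C medians were 63.8% (60.1 to 67.8) for the members and 61.5% (60.1 to 62.8) for lost one-directional promoters, with overlapping intervals. In the same windows, the ratio of observed to expected CpG had a median of 0.784 (0.717 to 0.860) in the members. All 2984 annotated divergent pairs with sequence had 0.787 (0.773 to 0.798), and lost one-directional promoters had 0.665 (0.637 to 0.692). The members' interval thus overlapped that of annotated divergent pairs and lay above that of lost one-directional promoters. These windows do not hold like sequence, because only the one-directional ones are centred on a start. Starts over 300 bp apart do not both fit in a window, and 38 members had distances of 300 to 1000 bp and 19 wider ones. The median distance was 226 bp in the members and 132 bp in annotated pairs. At Ncor1 the window missed the region, with 46.5% G and C against 72.9% in the region.

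Motifs were counted as exact matches on both strands in the same windows, and a match describes letters, not binding. A window follows the starts and can lie outside the lost region, as it did at Gng5, Rpl10a, Gfer and Rxrb. In the regions' own sequence, SP1 matches were in 22.4% and ETS matches in 16.1% of the members. The SP1 motif GGGGCGGGG was in 26 of 143 members (18.2%, 12.7 to 25.3), in 17.5% of annotated divergent pairs and in 18.1% of lost one-directional promoters. The ETS motif CCGGAAG was in 19 (13.3%, 8.67 to 19.8), against 19.4% (18 to 20.8) and 9.21%. The half-site AGGTCA, to which nuclear receptors including the thyroid hormone receptors bind, was in 22 members (15.4%, 10.4 to 22.2), against 12.1% and 16.0%. The NFY motif CCAATCA was in 10 (6.99%, 3.84 to 12.4), against 10.9% and 4.10%. For each of these the members' interval overlapped that of the annotated pairs.

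The other motifs were found in 11 members or fewer. The E-box CACGTG was in 11 (7.69%, against 9.01% of annotated pairs), the C/EBP motif TTGCNNAA in 8 (5.59% against 6.74%), TATAAA in 5 (3.50% against 5.63%) and the ZNF143 motif ACTACAA in 5 (3.50% against 3.25%). The NRF1 motif GCGCATGCG was in 4, at Arhgdia, Gng5, Commd1 and Rpl10a (2.80%, against 3.32% of annotated pairs and 0.921% of lost one-directional promoters), and in the regions' own sequence it was in 1.40%. The YY1 motif AAGATGGCG was in 3, at Gfer, Cfl2 and Rxrb (2.10% against 3.32%), and it was in 0.699% both in windows of 100 bp either side and in the regions' own sequence. TGACGTCA, the cyclic AMP response element, was in 1, at Vps37b (0.699%, 0.124 to 3.85, against 3.55%, 2.95 to 4.28). The HNF4 motif CAAAGTCCA was in 0 of 143 (up to 2.62%), against 0.369% of annotated pairs. At least 1 of the 12 motifs was in 88 members (61.5%), in 64.9% of annotated pairs and in 59.8% of lost one-directional promoters, and matches of different motifs overlapped in 0 of 143 member windows.

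**Figure D4:**
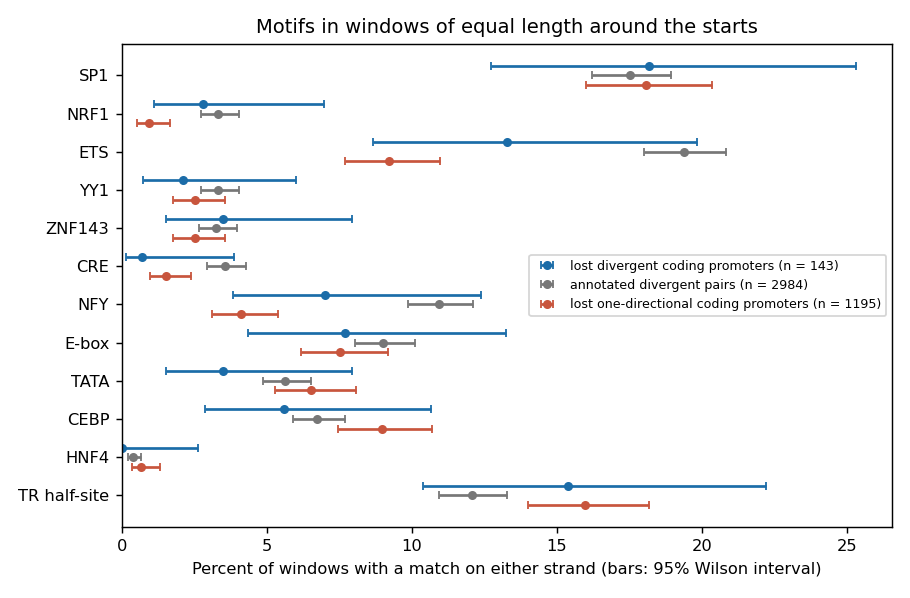
Percent of 301-bp windows with a match to each motif on either strand, with 95% Wilson intervals, for the 143 members, 2984 annotated divergent pairs and 1195 lost one-directional promoters. The members' interval for SP1 (12.7 to 25.3%) includes the values of both other groups.

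Against the annotation, loss was counted per gene. Of 22028 coding genes, 4011 (18.2%) have a start within 1000 bp of an opposite start that points away, and 149 of these had a lost region at such a start, which is 3.71% (3.17 to 4.35). Among the 18017 coding genes without a divergent start, 1050 had a lost region at any of their starts, or 5.83% (5.50 to 6.18). Over all coding genes 1303, or 5.92%, had a lost region at some start. Divergent genes were scored at their divergent starts only, which lowers their share by construction. The lower share depends on what is counted. When a divergent gene was scored at any of its starts, 253 of 4011 had a lost region (6.31%, 5.60 to 7.10). When distinct starts were counted in place of genes, 367 of 12371 divergent starts (2.97%, 2.68 to 3.28) and 2729 of 81187 other coding starts (3.36%, 3.24 to 3.49) had one. Both of these counts were chosen after seeing the data. Promoters open in both genotypes are in neither list, so the share of open divergent promoters that was lost cannot be computed.

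**Figure D5:**
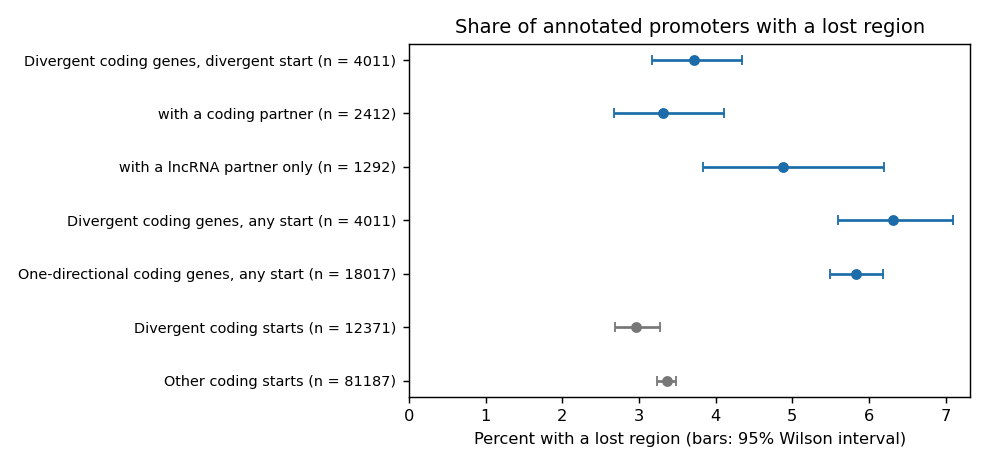
Percent of annotated coding genes (blue) or distinct coding starts (grey) with a lost region, with 95% Wilson intervals. Divergent genes scored at their divergent starts (3.71%) lie under one-directional genes scored at any start (5.83%), while divergent genes scored at any start (6.31%) do not.

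By type of partner, 80 of 2412 divergent genes with a coding partner had a lost region at the divergent start (3.32%, 2.67 to 4.11), as did 63 of 1292 with an lncRNA partner and no coding partner (4.88%, 3.83 to 6.19). Of the 307 with other partners only, 6 did (1.95%, 0.899 to 4.20). Counted by pair at the closest starts, 34 of 1233 coding pairs (2.76%, 1.98 to 3.83) and 57 of 1368 pairs with an lncRNA (4.17%, 3.23 to 5.36) had a lost region at a coding start. The intervals of both comparisons overlapped, and a coding pair had 2 starts that could be scored. For all 2994 pairs, the share was 3.73% (2.79 to 4.97) at distances up to 100 bp, 2.76% from 100 to 300 bp and 3.18% from 300 to 1000 bp, with overlapping intervals.

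Gene groups were read beside the background of 3.71% of divergent coding genes, as counts with no test of any group. The groups are lists of gene symbols, some taken by the start of the symbol, so genes of like function under other symbols are not counted in them. None of 83 genes for the mitochondrial ribosome, respiratory chain and import with a divergent start had a lost region at it (0 of 83, up to 4.42%), and neither had any of 47 DNA repair and replication genes (0 of 47, up to 7.56%). Both upper limits are above the background. Members outside the mitochondrial list include Pmpca (AUC 254), Mipep (AUC 271) and Gfer (AUC 394), whose products also act in mitochondria and which are named after their values were seen. Mrpl40 of the mitochondrial list is the partner at the Hira region (AUC 259). Ddb1 of the DNA repair list is the partner at the Tkfc region, which does not reach its start. RNA processing and transfer RNA synthetase genes had 1 of 75 (1.33%), which was Srsf2, a splicing factor gene that shares a region with Mfsd11 (AUC 267). Ubiquitin and proteasome genes had 1 of 60 (1.67%), Cul4a with Pcid2 (AUC 231), and this list does not hold Trim11 or Anapc11.

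Genes with Zfp, Zscan, Zkscan or Zbtb symbols, which code for zinc finger proteins and do not include Zeb1, had 8 of 91 (8.79%, 4.52 to 16.4): Zfp942, Zfp943, Zfp758, Zfp944, Zbtb1, Zfp169, Zfp65 and Zfp599. The interval lies above 3.71%, but the genes do not count as 8 separate events, because Zfp942 with Zfp943 and Zfp758 with Zfp944 share regions and sequence. With Zbtb1 and Zbtb25, 3 members joined genes of this list to each other, which was counted after the values were seen. Solute carriers had 4 of 64 (6.25%, 2.46 to 15.0): Slco2b1 (AUC 609.5), Slc27a5 (AUC 409), Slc20a2 (AUC 379) and Slc37a1 (AUC 240.1). Slc27a5, the bile acid CoA ligase of hepatocytes, is paired with Trim28, the corepressor of KRAB zinc finger proteins, and its region at chr7:12997784-12998406 covered the Slc27a5 start only. Histone genes had 2 of 45 (4.44%), the back-to-back pair Hist1h2bl and Hist1h2ai with 1 region (AUC 204). Ribosomal protein genes had 1 of 26 (3.85%), Rpl10a (AUC 235).

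For liver lipid metabolism, 2 of 20 genes with a divergent start had a lost region at it (10%, 2.79 to 30.1), Mgll and Slc27a5, an interval that includes 3.71%. At any start, 24 of all 91 genes of the group had a lost region (26.4%, 18.4 to 36.3), beside 5.92% of all coding genes. The same share was 15.2% (6.65 to 30.9) for thyroid hormone signalling, 18.2% (8.61 to 34.4) for DNA methylation and histone H3 lysine 9 methylation and 1.42% (0.485 to 4.10) for the mitochondrial list. For the other 7 groups it ran from 2.97% to 8.54%. Only promoters open in control liver can be listed as lost, and the background holds all coding genes, open or not. How many promoters of each group are open is not known here, so these shares cannot tell more loss from more open promoters. Thyroid hormone signalling genes had 2 of 8 (25.0%, 7.15 to 59.1), Rxrb and Ncor1, with an interval above 3.71% that rests on 2 genes. Rxrb codes for a retinoid X receptor that pairs with thyroid hormone receptors, and its region (AUC 314, chr17:34032311-34032632) had its summit 183 bp inside the gene, with Slc39a7 as the partner. Ncor1, the corepressor that thyroid hormone receptors recruit without hormone, is paired with Pigl, and its region had an AUC of 276. The coactivator gene Ep300 was also among the 143 members (AUC 471, chr15:81586011-81586519), but its start is 1192 bp from that of its partner, so it was not counted as having a divergent start.

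Genes for DNA methylation and histone H3 lysine 9 methylation had 1 of 11 (9.09%, 1.62 to 37.7). It was Cbx3, which codes for a heterochromatin protein and is paired with the RNA-binding protein gene Hnrnpa2b1 (AUC 215, chr6:51470806-51471153). Ehmt2, a histone methyltransferase gene, was a member through its region (AUC 359.8, chr17:34899239-34899904), with the complement gene C2 starting 1429 bp away. Textbook divergent pairs were looked up whether or not they were lost. The 8 reported here (Hspd1 and Hspe1, Ppat and Paics, Surf1 and Surf2, Atm and Npat, Mcm4 and Prkdc, Brca1 and Nbr1, Tap1 and Psmb9, Cbx3 and Hnrnpa2b1) were all annotated as divergent, and 0 of 8 had a lost region at their closest starts. Over all annotated coding pairs the share was 34 of 1233 (2.76%), and 8 pairs are too few to be set apart from it. Cbx3 and Hnrnpa2b1 was a member through starts 769 bp apart.

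Markers of liver cell types could not check the tissue, because the lists hold only differences between genotypes. Of 7 hepatocyte markers, 1 has a divergent start, which was not lost, and 3 (Apoa1, Apob and Hnf4a) had a lost region at some start (42.9%, 15.8 to 75.0), beside 5.92% of all coding genes. That background also holds genes whose promoters are not open in liver and so cannot be lost. None of the markers of Kupffer, endothelial, stellate, cholangiocyte or lymphoid cells had one (0 of 5, 0 of 5, 0 of 5, 0 of 4 and 0 of 4), and lists this short allow shares of up to 43.4% (5 genes) or 49.0% (4 genes). These counts cover starts only, and the study lists an area of reduced accessibility in an intron of the endothelial marker Stab2. A change in the share of cell types and a change within hepatocytes cannot be told apart in whole liver, and the part of either in these regions was not tested.

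Members were spread over 20 chromosomes, with 18 on chromosome 11, 14 on chromosome 7, 14 on chromosome 17 and 3 on X. On chromosome 11, 24 of 314 divergent coding genes had a lost region (7.64%, 5.19 to 11.1), and on chromosome 17 it was 15 of 237 (6.33%, 3.87 to 10.2), which were singled out after seeing the values. The share over all chromosomes was 3.71%. One-directional coding genes on the same chromosomes had 8.15% (6.80 to 9.75) and 6.11% (4.66 to 7.96), which overlap with those intervals. The median member had 2 other lost regions within 100 kb, and so had the median one-directional promoter. The members with the most such neighbours lay together on chromosome 11: Anapc11 with Alyref had 20, Arhgdia had 19 and the glucagon receptor gene Gcgr had 16. Control regions are numbered along the genome, and 35.9% of these numbers are in the lost list. The next numbered region was lost too for 54 members (37.8%, 30.2 to 45.9), for 41.3% (38.5 to 44.1) of one-directional and for 44.1% (37.8 to 50.7) of noncoding promoters. Among regions with an AUC of at least 300 it was 22.2% of the members, and with a summit -log10 q of at least 3 it was 20%, where fewer regions are listed by construction. The remaining 89 members were lost without the next region, and 60 of 143 (42.0%) without either neighbour.

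Regions just outside the limits of distance had lower median AUCs than the members just inside. The ranges overlapped, and only 5 regions were read on each side. The 5 members with the furthest partners, 928 to 991 bp from the region, had a median AUC of 353, and the 5 nearest regions outside, at 1035 to 1071 bp, had 291. At the limit of 200 bp from the coding start, the 5 members at 184 to 196 bp had a median AUC of 285, and the 5 regions at 221 to 229 bp had 266. The 5 weakest members had AUCs of 202 to 208, just above 200.004, the lowest AUC in the list.

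In the opposite list, 6 of the 54 Alb-D2KO-only regions at coding promoters were divergent (11.1%, 5.19 to 22.2), beside 10.7% among lost ones. Of the 6, 1 had an AUC of at least 300 and 2 a summit -log10 q of at least 3. They touched 6 of 4011 divergent coding genes (0.15%, 0.0686 to 0.326). Among one-directional coding genes, 46 of 18017 had an Alb-D2KO-only region (0.255%, 0.191 to 0.340), and the intervals overlap. The strongest was at Morf4l2 with BC065397 (AUC 343, chrX:136741219-136741894), followed by Anks1 with Taf11 (AUC 281, chr17:27909136-27909561). Epha4 had 239, the actin gene Actg1 had 222, C130026I21Rik had 217 and Lrrc56 had 204. Lrrc56 is paired with Hras, and this pair was in both lists: its Alb-D2KO-only region covered chr7:141194878-141195076, and its lost region, with an AUC of 251, covered chr7:141193303-141193723 inside Hras.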

How the data were processed

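Per the labels and the study's methods, the authors trimmed adapters, aligned paired reads to mm10 with BWA 0.7.17, used FastQC and Picard, removed duplicate, chimeric and low-quality alignments, set aside regions found in calls of individual libraries, and called regions with Genrich 0.6 over the 4 libraries of each genotype together. The deposited signal is the area under the -log10 p curve (AUC). The deposited score is AUC per bp with a ceiling. The deposited -log10 values are the p and q of the summit against background within a genotype, not between genotypes. The deposited summit offset is the position of the summit within the region.

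From these lists, regions were classed by overlap of at least 1 bp with windows around transcript starts of GENCODE release M21 (mm10), not the later release named in the study's methods, and classes near a start may differ between releases. Sequence was read from the RefSeq GRCm38 genome, the same build. Python 3.11.15, numpy 2.4.6, SciPy 1.17.1 and matplotlib 3.10.9 were used, and the counting code was tested on simulated data. Where a region had several pairs, a coding partner was shown first, then the smallest distance. Named members were the 10 with the highest AUC, the 8 highest with a coding partner, the 5 highest with an lncRNA partner, the 5 weakest by range, textbook pairs and up to 2 members of each gene group by AUC. Some items under this rule are not reported here. Names outside this rule were chosen after their values were seen.

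Alternatives were a higher AUC or q, other windows, the region midpoint, other partner distances, distance between the starts, merging of close regions, basic transcripts, the outermost start of each gene, fewer partner types and other motif windows. The members and lists were chosen with earlier results of these data known. Genotypes could not be compared by a test, because no value per library was used here.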

Additional observations from a re-analysis of the deposited data

How the results depend on the processing

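Leaving out a library was not possible, because the libraries of a genotype were called together. No paired analysis was possible because the lists hold no value per library. Of 94 recomputed values, 59 stayed within their interval (counts: within 1.5 times) and 35 moved, and the share of members with a coding partner did not move under any setting tried for it.

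With regions of AUC 300 or more, the members numbered 72, their median AUC was 408, and the shares of divergent and one-directional genes were 1.82% and 3.08%. With a summit -log10 q of at least 3 these were 90, 348, 2.49% and 4.01%. Both settings keep fewer regions by construction. With the outermost start of each gene only, they numbered 61 (7.69% of lost coding-promoter regions), gene shares were 2.82% and 3.84%, and 47.5% covered both starts. A partner limit of 500 bp gave 7.70% of lost coding-promoter regions and 52.4% covering both starts, and 2000 bp gave 13.5% and 29.8%. A promoter window of 500 bp gave gene shares of 5.24% and 7.12% and 27.7% covering both starts, and one of 100 bp gave 5.38% for one-directional genes. With the midpoint in the window, gene shares were 2.69% and 4.63%, and 48.6% covered both starts. With basic transcripts only, one-directional genes were at 4.72%. Divergent genes were under one-directional ones in each planned setting that gave both shares. Most of these settings scored divergent genes at divergent starts only and one-directional genes at any start, so this order is partly built in. With the outermost start of each gene, both kinds were scored alike, at 2.82% and 3.84%. With any start counted for both, divergent genes were not lower (6.31% beside 5.83%), a count chosen after seeing the data. Distinct starts, also chosen then, gave 2.97% and 3.36%. The YY1 share was 0.699% both in windows of 100 bp either side and in the regions' own sequence, where the NRF1 share fell from 2.80% to 1.40%, within its interval. The cause of these shifts was not tested beyond what the settings fix by construction.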

Other observations

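Several members, picked here after their values were seen, lay at genes of hepatocyte metabolism. Nags, which makes the activator of the first step of the urea cycle, had an AUC of 329 at chr11:102146161-102146582, and its region covered both its own start and that of a noncoding partner 120 bp away. The glucagon receptor gene Gcgr had an AUC of 369 with both starts covered. Uox, the urate oxidase gene, had an AUC of 296, and its region covered its own start but not that of Dnase2b. Klf15, a transcription factor gene of amino acid and glucose metabolism, had an AUC of 356, and Cyp2d10 had 468 with a microRNA as the partner. Yap1, the effector of Hippo signalling, had an AUC of 348, and its region did not reach the partner start. No count of such genes was set against a background, so nothing about liver genes as a group follows.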
